A study of Homo sapiens with 74 samples.

Results

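The DNA replication machinery was followed as 43 genes, chosen by symbol from the 28131 genes that each count table lists. The rule uses symbols and no measured value. The genes encode the origin recognition complex, the licensing factors CDC6 and CDT1, the MCM2-7 helicase, its activators, the replicative polymerases with primase, the sliding clamp and its loader, the enzymes that join Okazaki fragments, replication protein A, and 3 enzymes that supply DNA building blocks. Polyadenylated RNA was sequenced in K562 and HEL, established human erythroleukaemia cell lines, to ask how the transcriptome changes when DOT1L, the methyltransferase of lysine 79 on histone H3, or its partner ENL (gene MLLT1) is lost. K562 was grown in DMEM and had 3 columns each of wild type control, DOT1L-/- (DOT1L KO) and ENL-/- (ENL KO). HEL was grown in RPMI-1640 with β-mercaptoethanol and had 2 control libraries and 2 with DOT1L knockdown (DOT1L KD). The labels do not say whether a knockout is a single clone, which reagent made the knockdown, or whether replicates were separate cultures, so the p-values measure only the spread between these samples. K562 control columns 2 and 3 held identical counts and were used as 1 library, called control 2 here, which leaves 2 control libraries.

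A replication origin is licensed in G1, when the origin recognition complex, CDC6 and CDT1 load the MCM2-7 ring onto DNA. In S phase CDC45 and the GINS proteins join MCM2-7 to form the active CMG helicase, polymerase alpha with primase lays down primers, and polymerases delta and epsilon extend them with the PCNA clamp. Many of these genes are transcribed in late G1 and S phase under E2F transcription factors, so their RNA follows proliferation in blood progenitors and in leukaemia lines. In bulk RNA, fewer cells of a type, here cells in S phase, and less RNA per cell cannot be told apart.

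The promoters of the group carried the E2F letters often. RefSeq (GRCh38.p14) gave a promoter window for 37 of the 43 genes, 300 bases with 250 before and 50 after the start. The words searched on both strands were TTTCCCGC, TTTCGCGC, TTTGCCGC and TTTGGCGC, which can overlap each other. At least one was present in 18 of the 37 windows (48.6%), against 3.33% of all 27305 windows of the same length. Related lists, named further below, held them too: 36.8% of windows of the E2F, pocket protein and S-phase cyclin genes. The shares were 21.2% for other replication genes and 12.5% for G2 and M phase genes, so the words are not particular to the group. The letters CCAAT stood in 22 of 37 (59.5%, against 35.7% of all). In the related lists they stood in 42.1% of windows of the E2F list, 54.5% of other replication genes and 81.2% of G2 and M phase genes. TTTGAA, the core of the element known from G2 and M phase promoters, stood in 1 of 37 (2.70%, against 15.4% of all), whereas 10 of 16 windows of the G2 and M phase genes held it (62.5%). A match describes these letters and is no evidence of binding. The 9 stretches below are shown because their genes recur in the results: CDC6 and CDT1 load the helicase, MCM2, MCM3, MCM6 and MCM7 form it, and GINS1, POLA1 and PCNA act at the fork. Each is written 5′ to 3′ on the strand of the gene, with the E2F word in capitals, where overlapping words run together.
CDC6 (chr17:40287877-40287906, + strand): ccattcggaTTTGGCGCgagcgcggctgga
CDT1 (chr16:88803745-88803774, + strand): agggcgcccGCGGGAAAtttggcgggaacc
MCM2 (chr3:127598404-127598433, + strand): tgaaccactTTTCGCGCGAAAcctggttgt
MCM3 (chr6:52284726-52284755, - strand): ttcggaagtTTTCGCGCcggggtggagtca
MCM6 (chr2:135876509-135876538, - strand): tcaggTTTGGCGCGAAAtctccagctcctg
MCM7 (chr7:100101386-100101415, - strand): ggggcgacgTTTCGCGCcaatttcggttgg
GINS1 (chr20:25407669-25407698, + strand): ctttgttcgGCGCCAAAgcgcggagcggag
POLA1 (chrX:24693772-24693801, + strand): catcacaggGCGCCAAAcgcgcgtccgcgg
PCNA (chr20:5126661-5126690, - strand): gcgtcagggGCGGGAAAaggcgtgcgtttc

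All 43 genes were well covered. Total counts were 15404944 to 29236703 per library in K562 and 12151495 to 12811688 in HEL, and the lowest count of any of the 43 genes in a library was 143. All 43 passed the filter on low counts in both tables, which kept 14301 genes in K562 and 12635 in HEL. Levels are given as CPM, in which the TMM-adjusted total of every library is set to the same value. The targeted genes were lower where the labels say so: DOT1L RNA changed by -0.53 (log2) in the DOT1L knockout and by -1.64 in the HEL knockdown, and MLLT1 RNA by -0.48 in the ENL knockout. RNA of an edited gene can persist, so this checks the labels only in part. Erythroid markers were present in both lines, and their summed level was 4568 to 4929 CPM in K562 controls, 7139 to 7550 in the DOT1L knockout and 5355 to 5593 in the ENL knockout. In HEL it was 3307 to 3316 in controls and 4223 to 4267 after knockdown. Of the megakaryocytic markers, GP9, GP1BA, PF4 and VWF were at 0 in K562 controls, while the 8 markers of the list summed in HEL controls to 2619 to 2673 CPM.

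The 43 genes together took 0.655% and 0.660% of all counts in the K562 controls, 0.709% to 0.714% in the DOT1L knockout and 0.715% to 0.724% in the ENL knockout. In HEL they took 0.577% and 0.578% in the controls and 0.559% and 0.562% after knockdown. The share was therefore above both controls in every K562 knockout library and below both controls in both HEL knockdown libraries. Single genes moved little: the largest change in size against a control was -0.82 (RPA2 in HEL), and the median size of change was smaller among the 43 genes than among all genes, 0.149 against 0.291 in the DOT1L knockout, 0.181 against 0.252 in the ENL knockout and 0.17 against 0.245 in HEL. The set of all genes was not matched to the group in level, and the part of level in these medians was not tested. The plot of all 43 changes by role shows the differing directions.

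**Figure D1:**
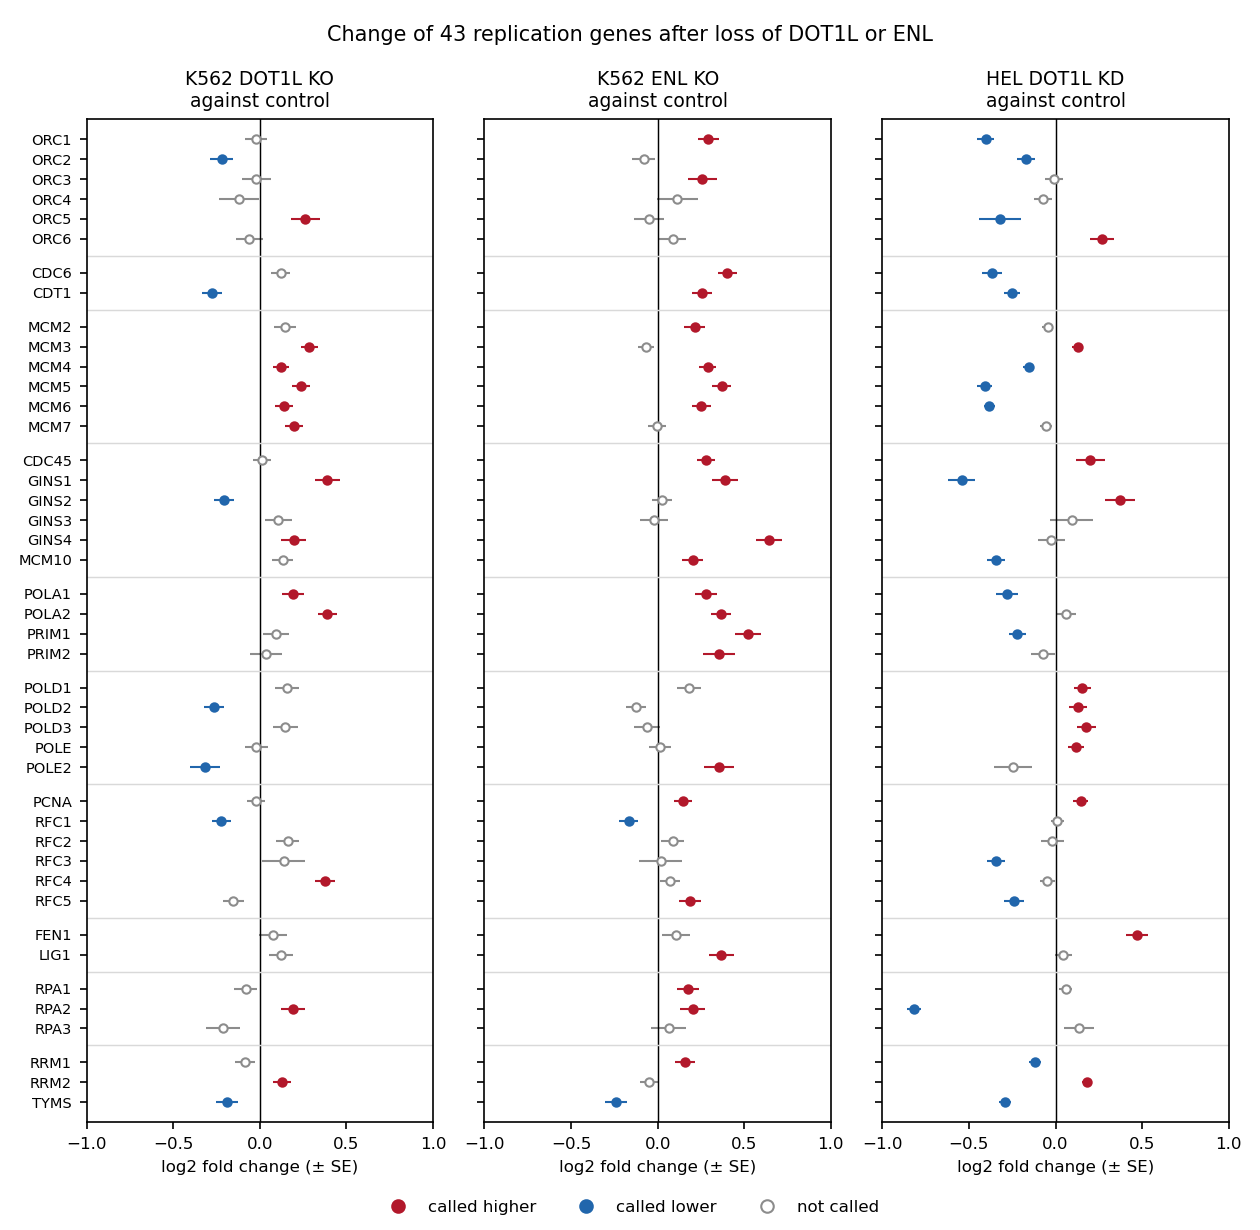
Log2 fold change (x axis, ± SE from edgeR) of the 43 genes (rows, grouped by role from origin recognition at the top to nucleotide supply at the bottom) in 3 comparisons with a control. Filled red points were called higher, filled blue points lower and open points not called at an adjusted p of 0.05; in the ENL knockout 23 genes were higher and 2 lower, in HEL 11 were higher and 17 lower.

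In K562 without DOT1L, 13 of the 43 genes rose, 7 fell and 23 did not pass the test (edgeR's quasi-likelihood test, adjusted over all genes). Of all genes tested, 26.9% were called higher and 24.2% lower, so the 30.2% of the group that rose was near the background and the 16.3% that fell was below it. The median log2 fold change was 0.107, against 0.011 over all genes. Leaving out a library changed the counts: 5 genes were higher when control 1 was omitted, 8 when DOT1L KO 1 was and 6 when DOT1L KO 2 was, and 4 were lower when control 2 was. Without the filter on low counts 7 were higher, and MCM4, MCM6, GINS4, POLA1, RPA2 and RRM2 lost their calls. Other alternatives called more: 16 were higher with upper-quartile scaling and 19 with library-size scaling, where the median was 0.152. A replicate block, or the identical columns counted separately, also gave 19. Library-size scaling moved the share of higher among all called genes from 52.6% to 59.1%. Of the 13 higher genes, 5 (MCM3, MCM5, GINS1, POLA2, RFC4) passed in each of 12 alternative analyses (a minimum log2 change of 1, which no gene of the group reached against a control, is counted apart), and of the 7 lower genes 3 did (CDT1, POLD2, RFC1).

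In K562 without ENL, 23 of the 43 genes rose, 2 fell and 18 did not pass. The 53.5% of the group that rose compares with 18.8% of all genes called higher, and the 4.65% that fell with 22.2% called lower. The median was 0.175, against 0.00282 over all genes. Without control 1 the counts were 12 higher and 0 lower (RFC1 with adjusted p = 0.128 and TYMS with 0.0649), and the lower count was 1 without control 2, ENL KO 1 or ENL KO 2. Of the 23, 12 passed in each of the alternatives: ORC1, CDC6, CDT1, MCM4, MCM5, CDC45, GINS1, GINS4, POLA2, PRIM1, POLE2 and LIG1. The labels of control and DOT1L knockout libraries name a sequencing lane and those of the ENL knockout name none, so a difference in batch and the loss of ENL cannot be told apart.

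In HEL after DOT1L knockdown, 11 of the 43 genes rose, 17 fell and 15 did not pass. Replicates were closer in HEL than in K562: edgeR's common coefficient of variation was 1.83%, with 2 residual degrees of freedom. In K562 it was 6.34%, with 5. A change of the same size can therefore reach a smaller p-value in HEL, and p-values and counts of calls are not comparable between the lines. Of all genes 27.0% were called higher and 28.0% lower, so the 25.6% that rose was near the background and the 39.5% that fell was above it. The median was -0.0465, against 0.0129 over all genes, and with upper-quartile scaling it was 0.0269 with 15 higher and 14 lower. That scaling also moved the share of higher among all called genes from 49.1% to 61.4%. Of the 17 lower genes 14 passed in each of 9 alternatives, and of the 11 higher ones 4 did (MCM3, GINS2, FEN1, RRM2). The higher count was 6 without HEL control 1, 6 without the filter on low counts and 4 with DESeq2. With DESeq2 the higher calls of ORC6, CDC45, POLD1, POLD2, POLD3, POLE and PCNA and the lower calls of ORC2 and ORC5 were lost.

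Origin recognition. ORC1, the ATPase subunit that marks origins in G1, stood at 117 and 123 CPM in K562 controls and at 114, 124 and 116 in the DOT1L knockout. The ENL knockout libraries held 140, 152 and 149, above both controls (log2 fold change 0.29, SE 0.062, adjusted p = 0.00194, edgeR). In HEL it went from 106 and 98.4 in the controls to 80.0 and 74.6 after knockdown, with no overlap (-0.40, SE 0.05, adjusted p = 1.33e-09). ORC1 thus differed between the knockouts and did not differ detectably between control and DOT1L knockout.

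ORC5, a further subunit of the complex, stood at 33.8 and 38.1 CPM in K562 controls, 39.7, 45.1 and 44.6 in the DOT1L knockout and 32.9, 34.7 and 36.5 in the ENL knockout. All DOT1L knockout libraries were above both controls (0.26, adjusted p = 0.0192, edgeR), and the call was lost without control 1, DOT1L KO 2 or DOT1L KO 3 (adjusted p up to 0.216). In HEL it was lower after knockdown, 11.5 and 12.4 against 15.7 and 14.1 (-0.32, adjusted p = 0.0204), a call lost without HEL control 1 or HEL KD 1 (up to 0.17). ORC2 fell in the DOT1L knockout (-0.22) and in HEL (-0.17), ORC3 rose in the ENL knockout (0.26), and ORC6 rose in HEL (0.27). The ORC2 call was lost without K562 control 2 in the DOT1L knockout (adjusted p = 0.0995, edgeR) and without HEL KD 1 in HEL (0.117), that of ORC3 without control 1, ENL KO 2 or ENL KO 3 (up to 0.217), and that of ORC6 without HEL control 1 (0.09). ORC4 passed in no comparison with a control.

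Licensing. CDC6, which recruits MCM2-7 to the origin complex, held 120 and 119 CPM in K562 controls, 128, 135 and 126 in the DOT1L knockout, and 159, 154 and 160 in the ENL knockout. The rise passed in the ENL knockout (0.40, SE 0.055, adjusted p = 5.98e-05, edgeR) and not in the DOT1L knockout (0.12, adjusted p = 0.08), although every DOT1L knockout library was above both controls. In HEL it fell from 63.1 and 63.2 to 50.6 and 47.3 (-0.37, adjusted p = 6.29e-07). CDT1, the partner of CDC6 in loading the helicase, moved in opposite directions in the knockouts. It held 244 and 253 CPM in K562 controls, 201, 205 and 210 in the DOT1L knockout, and 297, 314 and 280 in the ENL knockout. The knockouts lay on opposite sides of the controls without overlap (-0.28, adjusted p = 0.00123, and 0.26, adjusted p = 0.00289), and they differed from each other by -0.53 (SE 0.051, adjusted p = 9.27e-07, DOT1L knockout minus ENL knockout). HEL libraries held 105 and 106 in controls and 86.8 and 90.7 after knockdown (-0.25, adjusted p = 1.11e-05). The CDT1 calls against a control passed in each alternative other than the minimum change.

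The helicase. The MCM2-7 ring unwinds the DNA duplex ahead of the fork, and in the DOT1L knockout 5 of its 6 genes rose and 0 fell (median 0.172), where 26.9% of all genes were called higher. That count was 2 without control 1, and 3 without DOT1L KO 1, without DOT1L KO 2 or without the filter on low counts. In the ENL knockout 4 of 6 rose (against 18.8% of all genes) and 0 fell, with 2 higher without control 1. In HEL 1 rose and 3 fell (against 27.0% and 28.0%). Both counts of 0 were also 0 at an unadjusted p under 0.05 in edgeR and with DESeq2. The plot of levels by library shows all 6 genes.

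**Figure D2:**
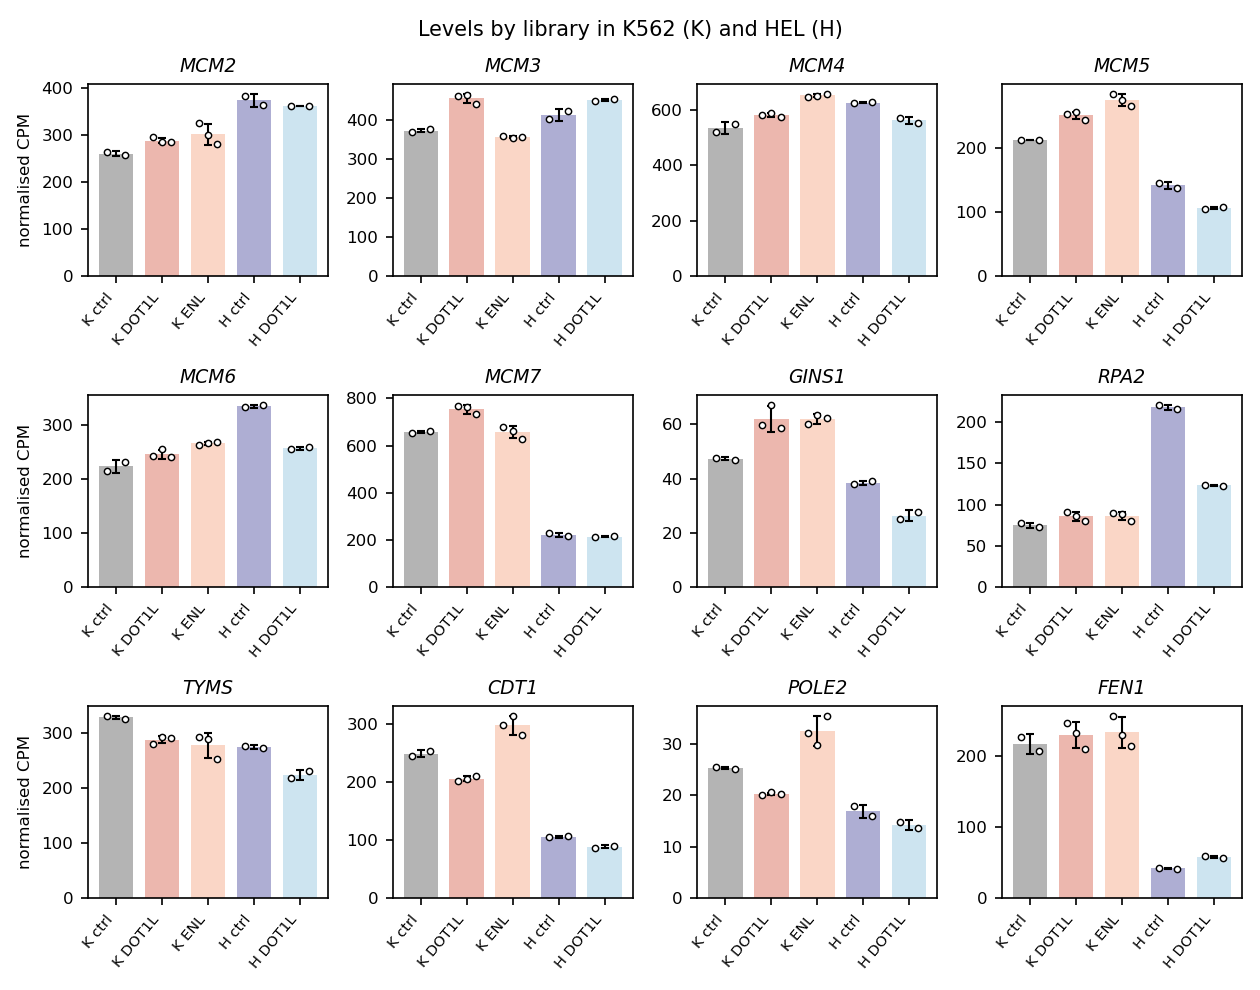
Level in CPM (y axis, from 0, TMM-scaled within each table) of 12 replication genes. Bars are group means with SD, open points are libraries (K562 control n = 2, DOT1L knockout n = 3, ENL knockout n = 3; HEL control n = 2, knockdown n = 2; K stands for K562 and H for HEL, ctrl for control). MCM5 and GINS1 sit above their controls in both K562 knockouts and below them in the HEL knockdown, and CDT1 and POLE2 lie on opposite sides of the K562 controls in the 2 knockouts.

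MCM5 held 213 and 212 CPM in K562 controls, 253, 255 and 244 in the DOT1L knockout and 285, 274 and 265 in the ENL knockout. Every knockout library was above both controls (0.24, adjusted p = 0.00195, and 0.37, adjusted p = 8.65e-05, edgeR). In HEL it dropped from 145 and 138 to 105 and 108 (-0.41, SE 0.044, adjusted p = 1.98e-11). MCM5 thus rose in both K562 knockouts and fell in HEL.

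MCM3 held 370 and 375 CPM in K562 controls, 460, 463 and 440 in the DOT1L knockout and 358, 353 and 356 in the ENL knockout. It rose in the DOT1L knockout (0.29, SE 0.049, adjusted p = 0.000269), and the ENL knockout value of -0.07 did not pass. In HEL it was 401 and 423 in controls and 448 and 453 after knockdown (0.13, adjusted p = 0.000471). MCM3 was the single ring gene called higher in HEL.

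MCM6 held 215 and 232 CPM in K562 controls, 242, 256 and 241 in the DOT1L knockout and 263, 266 and 269 in the ENL knockout. The DOT1L knockout call was marginal (0.14, adjusted p = 0.0459) and was lost without control 1, DOT1L KO 1 or DOT1L KO 2 (up to 0.371), and the ENL knockout call (0.25, adjusted p = 0.00238) without control 1 (0.0519). In HEL it fell from 333 and 337 to 255 and 259 (-0.38, SE 0.033, adjusted p = 1.4e-14), with no overlap. The HEL fall of MCM6 passed in each alternative.

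MCM4, the next subunit of the ring, held 518 and 548 CPM in K562 controls, 581, 587 and 572 in the DOT1L knockout and 647, 650 and 657 in the ENL knockout. Its rise of 0.12 in the DOT1L knockout (adjusted p = 0.0489, edgeR) was lost when any 1 of the 5 libraries concerned was left out (0.0525 to 0.347). The rise of 0.29 in the ENL knockout (adjusted p = 0.000342) passed in each alternative. In HEL it went from 623 and 627 to 570 and 551 (-0.16, adjusted p = 9.36e-06).

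MCM7 held 655 and 660 CPM in K562 controls, 768, 762 and 732 in the DOT1L knockout and 681, 660 and 629 in the ENL knockout. Its rise in the DOT1L knockout (0.20, adjusted p = 0.00593) was lost without control 1 (0.0504), and the ENL knockout libraries spread around the controls. HEL libraries held 228 and 217 in controls and 213 and 216 after knockdown, which did not pass (-0.05). MCM7 shares 8.95% of its exonic bases with AP4M1 on the other strand, and the counting's use of strand is not stated.

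MCM2 held 265 and 257 CPM in K562 controls, 295, 285 and 286 in the DOT1L knockout and 326, 300 and 281 in the ENL knockout. The value of 0.15 in the DOT1L knockout did not pass (adjusted p = 0.0642), and the rise in the ENL knockout (0.21, adjusted p = 0.0142) was lost without either control library (0.103 and 0.0548). In HEL it stood at 384 and 365 in controls and 363 and 363 after knockdown (-0.05, not passed). MCM2 thus passed in the ENL knockout alone among the comparisons with a control.

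Helicase activation. GINS1 (chr20:25407673-25448563, + strand, GRCh38), a subunit of the GINS complex that completes the CMG helicase, held 47.7 and 46.9 CPM in K562 controls, 59.9, 67.3 and 58.6 in the DOT1L knockout and 60.0, 63.4 and 62.5 in the ENL knockout. With POLA2, which had the same value to 2 decimals, it had the largest change of the group in the DOT1L knockout, and its values of 0.39 in each knockout passed (adjusted p = 0.000521 and 0.000795, edgeR). In HEL it fell from 37.9 and 39.0 to 25.1 and 27.8 (-0.54, SE 0.079, adjusted p = 6.64e-08). No knockout or knockdown library overlapped its controls, and the calls passed in each alternative.

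GINS4, the subunit also called SLD5, held 34.4 and 33.3 CPM in K562 controls, 39.2, 40.0 and 37.2 in the DOT1L knockout and 55.7, 49.9 and 53.3 in the ENL knockout. Its rise of 0.64 in the ENL knockout (SE 0.075, adjusted p = 1.27e-05, edgeR) was the largest of the 43 genes there. The smaller rise in the DOT1L knockout (0.20, adjusted p = 0.0415) was lost without control 1, control 2, DOT1L KO 1 or DOT1L KO 2 (up to 0.204), and the knockouts differed by -0.45 (adjusted p = 4.47e-05, DOT1L knockout minus ENL knockout). HEL stood at 36.7 and 34.3 in controls and 36.4 and 33.4 after knockdown, and did not pass.

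GINS2 went against GINS1. It held 64.6 and 64.3 CPM in K562 controls, 57.0, 56.2 and 54.5 in the DOT1L knockout and 65.8, 64.4 and 66.6 in the ENL knockout, with a fall in the DOT1L knockout (-0.21, adjusted p = 0.00983) that was lost without either control library (up to 0.0588). In HEL it rose from 23.2 and 23.4 to 27.9 and 32.4 (0.37, adjusted p = 0.000319), a call kept in each alternative. GINS3 passed in no comparison with a control, so the 4 genes of this 4-subunit complex did not move together in any of the comparisons.

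CDC45, which joins MCM2-7 and GINS in the active helicase, rose in the ENL knockout, with 332, 324 and 319 CPM against 263 and 273 in controls (0.28, adjusted p = 0.000535), and did not pass in the DOT1L knockout (274, 267 and 270 CPM). Its HEL rise from 24.8 and 25.9 to 28.1 and 30.2 (0.20, adjusted p = 0.0401) was lost without HEL control 1, HEL control 2 or HEL KD 2 (up to 0.263). MCM10, which helps the helicase start to unwind, fell in HEL (-0.34, adjusted p = 2.17e-07) and rose in the ENL knockout (0.20, adjusted p = 0.0153), the latter call being lost without control 1, control 2 or ENL KO 2 (up to 0.0877).

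Primer synthesis. Polymerase alpha and primase make the primers of both strands, and all 4 of their genes rose in the ENL knockout (against 18.8% of all genes) while 2 rose in the DOT1L knockout (against 26.9%) and 2 fell in HEL (against 28.0%). Without control 1 the counts were 2 in the ENL knockout and 1 in the DOT1L knockout, and the latter was also 1 without DOT1L KO 2 or without the filter on low counts. PRIM1, the catalytic primase subunit, held 59.0 and 62.6 CPM in K562 controls, 62.3, 69.7 and 62.1 in the DOT1L knockout and 82.8, 85.7 and 93.9 in the ENL knockout. Only the ENL knockout passed (0.52, SE 0.075, adjusted p = 9.17e-05, edgeR), and the difference between the knockouts passed too (-0.43, adjusted p = 7.66e-05, DOT1L knockout minus ENL knockout). In HEL it went from 95.5 and 100 to 81.9 and 86.4 (-0.22, adjusted p = 0.000133).

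POLA2, the regulatory subunit of polymerase alpha, held 63.0 and 64.7 CPM in K562 controls, 82.4, 85.2 and 83.2 in the DOT1L knockout and 81.0, 83.0 and 82.6 in the ENL knockout. Both knockouts were higher by nearly the same amount (0.39, adjusted p = 6.37e-05, and 0.37, adjusted p = 0.000171), and their difference of 0.02 had a SE of 0.05. HEL held 59.6 and 57.4 in controls and 62.8 and 59.2 after knockdown, an overlap that did not pass (0.06). POLA1, the catalytic subunit, held 84.7 and 90.5 in K562 controls, 96.6, 105 and 97.7 in the DOT1L knockout and 102, 107 and 110 in the ENL knockout, and in HEL 58.2 and 54.2 in controls and 46.7 and 45.9 after knockdown. Its calls were 0.19 (adjusted p = 0.0224), 0.28 (adjusted p = 0.0031) and -0.28 (adjusted p = 0.000142), and both K562 calls were lost without control 1 (up to 0.209), that in the DOT1L knockout also without DOT1L KO 2 (0.0789). PRIM2, the large primase subunit, rose in the ENL knockout (0.36), a call lost without control 1 (adjusted p = 0.106, edgeR).

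Elongation. Polymerases delta and epsilon copy the lagging and the leading strand. Of their 5 genes 2 fell and 0 rose in the DOT1L knockout (against 24.2% and 26.9% of all genes), and 1 rose and 0 fell in the ENL knockout (against 18.8% and 22.2%). In HEL 4 rose and 0 fell in edgeR (against 27.0% and 28.0%), but DESeq2 called 0 of the 5 higher. The HEL count was 1 without the filter on low counts or without HEL control 2, and 2 without any other HEL library. The lower count in the DOT1L knockout was 1 without control 1. The counts of 0 in edgeR were 1, 0 and 1 at an unadjusted p under 0.05 in edgeR and 0 with DESeq2. POLE2 (chr14:49643552-49688380, - strand, GRCh38), the second subunit of the leading-strand polymerase epsilon, held 25.4 and 25.1 CPM in K562 controls, 20.0, 20.5 and 20.2 in the DOT1L knockout and 32.0, 29.7 and 35.4 in the ENL knockout. The 3 groups did not overlap (-0.32, adjusted p = 0.00825, and 0.36, adjusted p = 0.00497, edgeR), and the call in the DOT1L knockout was lost without control 1 (0.0518). The knockouts differed by -0.67 (SE 0.078, adjusted p = 5.54e-06, DOT1L knockout minus ENL knockout), the largest difference between them in the group. In HEL POLE2 stood at 17.8 and 16.0 in controls and 14.9 and 13.6 after knockdown, and did not pass (adjusted p = 0.0587).

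POLD2, the accessory subunit of polymerase delta, held 269 and 259 CPM in K562 controls, 221, 218 and 220 in the DOT1L knockout and 254, 247 and 225 in the ENL knockout. Only the DOT1L knockout passed (-0.27, adjusted p = 0.00177), in each alternative. In HEL it rose slightly, from 70.9 and 71.8 to 78.6 and 77.4 (0.13, adjusted p = 0.0319), a call lost when any 1 HEL library was left out (0.0756 to 0.144). POLD3, a further accessory subunit, went in HEL from 56.3 and 58.5 to 65.1 and 64.8 (0.18, adjusted p = 0.00616), lost without HEL control 1 (0.0701). POLD1 and POLE, the catalytic subunits, rose in HEL by 0.15 and 0.12. The POLD1 call was lost without HEL control 2 (adjusted p = 0.316, edgeR) and the POLE call without HEL control 2, HEL KD 1 or HEL KD 2 (up to 0.218), and the POLD1 value was 0.24 without HEL control 1.

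Clamp and clamp loader. PCNA, the ring that holds the polymerases on DNA, held 213 and 218 CPM in K562 controls, 204, 219 and 212 in the DOT1L knockout and 238, 234 and 243 in the ENL knockout. Its rise of 0.14 in the ENL knockout (adjusted p = 0.0411) was lost when any 1 of the 5 libraries concerned was left out (0.0647 to 0.204). In HEL it moved from 149 and 169 to 177 and 174 (0.15, adjusted p = 0.00325), a call lost without HEL control 1 (0.357) and a value of 0.24 without HEL control 2. PCNA shares 26.6% of its exonic bases with the antisense gene PCNA-AS1, so its values are uncertain if strand was not used.

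The loader subunits did not move as a unit. RFC4 held 85.1 and 80.3 CPM in K562 controls, 109, 108 and 105 in the DOT1L knockout and 88.2, 84.6 and 88.2 in the ENL knockout, and only the DOT1L knockout passed (0.38, SE 0.057, adjusted p = 9.94e-05, edgeR). RFC1, the largest subunit, was lower in both knockouts, with 119 and 119 in controls, 102, 101 and 102 in the DOT1L knockout and 105, 102 and 110 in the ENL knockout (-0.22, adjusted p = 0.00431, and -0.17, adjusted p = 0.028). The RFC1 call in the ENL knockout was lost without control 1, control 2, ENL KO 1 or ENL KO 2 (up to 0.128). RFC5 held 71.7 and 77.6 in K562 controls, 65.8, 69.2 and 66.3 in the DOT1L knockout and 83.9, 83.4 and 87.7 in the ENL knockout, where it rose (0.19, adjusted p = 0.0272), a call lost without control 1, ENL KO 2 or ENL KO 3 (up to 0.255). In HEL RFC5 fell from 64.0 and 61.9 to 51.9 and 54.7 (-0.24, adjusted p = 0.000407). RFC3 passed only in HEL, where it fell from 81.5 and 84.2 to 64.3 and 66.4 (-0.34, adjusted p = 1.68e-07). RFC2 passed in no comparison with a control.

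Okazaki fragments. FEN1 (chr11:61792637-61797242, + strand, GRCh38), the nuclease that removes the displaced primer end, had the largest rise of the group in HEL, from 42.8 and 41.1 to 59.3 and 56.9 CPM (0.47, SE 0.063, adjusted p = 8.27e-09, edgeR). In K562 its libraries overlapped: 227 and 207 in controls, 246, 232 and 210 in the DOT1L knockout and 257, 230 and 214 in the ENL knockout. LIG1, the ligase that seals the fragments, rose in the ENL knockout, with 157, 150 and 135 CPM against 119 and 109 in controls (0.37, adjusted p = 0.000988), and passed in neither comparison of DOT1L loss.

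Single-strand binding. RPA2 (chr1:27891526-27914797, - strand, GRCh38), the middle subunit of replication protein A, which coats single-stranded DNA, showed the largest change of the 43 genes against a control. In HEL it fell from 220 and 215 CPM to 124 and 123 (-0.82, SE 0.039, adjusted p = 1.88e-24, edgeR), and in each alternative it stayed between -0.84 and -0.75. K562 libraries moved the other way, with 77.3 and 72.8 in controls, 90.7, 86.0 and 80.6 in the DOT1L knockout and 90.2, 88.4 and 80.2 in the ENL knockout. Those calls were marginal (0.19, adjusted p = 0.0366, and 0.20, adjusted p = 0.0367): each was lost without control 1 or control 2, the first also without DOT1L KO 1 or DOT1L KO 2 (up to 0.24) and the other also without ENL KO 1 or ENL KO 2 (up to 0.228). RPA1, the large subunit, rose in the ENL knockout (0.18, adjusted p = 0.0481), a call lost without control 1, control 2, ENL KO 1 or ENL KO 2 (up to 0.189), and RPA3 passed in no comparison with a control. The fall in HEL therefore concerned 1 of the 3 subunits.

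Nucleotide supply. TYMS, which makes thymidylate, was the single gene of the 43 called lower in all 3 comparisons with a control. It held 331 and 326 CPM in K562 controls, 280, 293 and 291 in the DOT1L knockout and 293, 290 and 252 in the ENL knockout, and in HEL 277 and 272 in controls and 218 and 231 after knockdown. Every knockout or knockdown library was below its controls (-0.19, adjusted p = 0.0244, then -0.24, adjusted p = 0.00891, and -0.29, adjusted p = 4.92e-10, edgeR). The call in the DOT1L knockout was lost without control 1, control 2 or DOT1L KO 1 (up to 0.11), and that in the ENL knockout without control 1 (0.0649). TYMS shares 27.7% of its exonic bases with ENOSF1 and 6.31% with TYMSOS on the other strand, so the values are uncertain if strand was not used.

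RRM2, the regulated subunit of ribonucleotide reductase, rose in HEL from 549 and 551 to 625 and 623 CPM (0.18, SE 0.029, adjusted p = 3.72e-07). In K562 it held 203 and 210 in controls, 230, 228 and 220 in the DOT1L knockout (0.13, adjusted p = 0.0465) and 200, 201 and 197 in the ENL knockout, which did not pass. The call in the DOT1L knockout was lost without control 1, control 2, DOT1L KO 1 or DOT1L KO 2 (up to 0.268). RRM1, the large subunit, fell in HEL (-0.12) and rose in the ENL knockout (0.16, adjusted p = 0.0456). Of these, the HEL call was lost without HEL KD 1 (0.0875) and the other when any 1 of the 5 K562 libraries concerned was left out (0.0618 to 0.3), so the subunits of this enzyme were called in opposite directions in HEL.

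Against each other, the K562 knockouts differed in 25 of the 43 genes, 58.1% against 60.2% of all genes, which is near the background. The directions were unequal: with the DOT1L knockout minus the ENL knockout, 6 of 43 genes were higher (14.0%, against 31.8% of all genes) and 19 lower (44.2%, against 28.3%), with a median of -0.132. Of the 19 lower genes 16 passed in each of 13 alternatives: ORC1, ORC3, CDC6, CDT1, MCM4, CDC45, GINS2, GINS4, PRIM1, PRIM2, POLE2, PCNA, RFC5, LIG1, RPA1 and RRM1. The higher genes were ORC5, MCM3, MCM7, POLD3, RFC4 and RRM2, of which POLD3 lost its call without DOT1L KO 2 (adjusted p = 0.05, edgeR). The other 3 lower genes depended on a library: MCM5 and POLD2 on DOT1L KO 1, DOT1L KO 3, ENL KO 1 or ENL KO 2 (up to 0.0981 and 0.121), POLD2 also on DOT1L KO 2, and RPA3 on DOT1L KO 1 or ENL KO 2 (up to 0.0967). The knockouts share their controls, so their changes against the controls are set side by side and not correlated. The possible batch difference of the ENL knockout, named above, also goes with this comparison and with each gene compared between the knockouts. It cannot be told apart from the difference between losing DOT1L and losing ENL.

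Loss of DOT1L was then compared between the lines in 1 joint fit, as the HEL change minus the K562 change. This fit pooled the unequal spreads of the lines, with a common coefficient of variation of 4.88%. The difference was called for 21 of the 43 genes, 6 more positive in HEL (against 19.8% of all 15367 genes) and 15 more negative (against 19.1%). The 6 are 14.0% of the group and the 15 are 34.9%. The more positive count was 3 without HEL control 1 or without HEL KD 2. Among the 43, 7 were called higher in the DOT1L knockout and lower in the HEL knockdown (MCM4, MCM5, MCM6, GINS1, POLA1, RPA2, ORC5), and 2 were called lower in the first and higher in the second (GINS2, POLD2). The 7 are 16.3% of the group, against 6.26% of the 11644 genes tested in both lines, and the 2 are 4.65%, against 6.30%. The 7 became 2 (MCM5 and GINS1) without K562 control 1, without DOT1L KO 2 or without the filter on low counts, and 4 without DOT1L KO 1. The 2 became 1 without either K562 control, without any 1 HEL library, without the filter or with DESeq2. The cell line goes together with knockout or knockdown, fragment or read counting, culture medium and library batch, and these cannot be told apart.

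The difference was widest for RPA2 (-0.99, SE 0.085, adjusted p = 5.9e-09, edgeR) and GINS1 (-0.91, adjusted p = 1.62e-06), followed by MCM5 (-0.63), GINS2 (0.60) and ORC5 (-0.57). Among the ring genes MCM4, MCM5, MCM6 and MCM7 were more negative in HEL, and the difference for MCM2 (-0.17, adjusted p = 0.0515) and MCM3 (-0.14, adjusted p = 0.108) did not pass. MCM7 lost its call without HEL control 1 or HEL KD 1 (up to 0.0899). CDT1 (0.04, SE 0.075) and TYMS (-0.09, SE 0.07) fell in both lines with no detectable difference. The plot of K562 against HEL changes shows the spread of the group away from the diagonal.

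**Figure D3:**
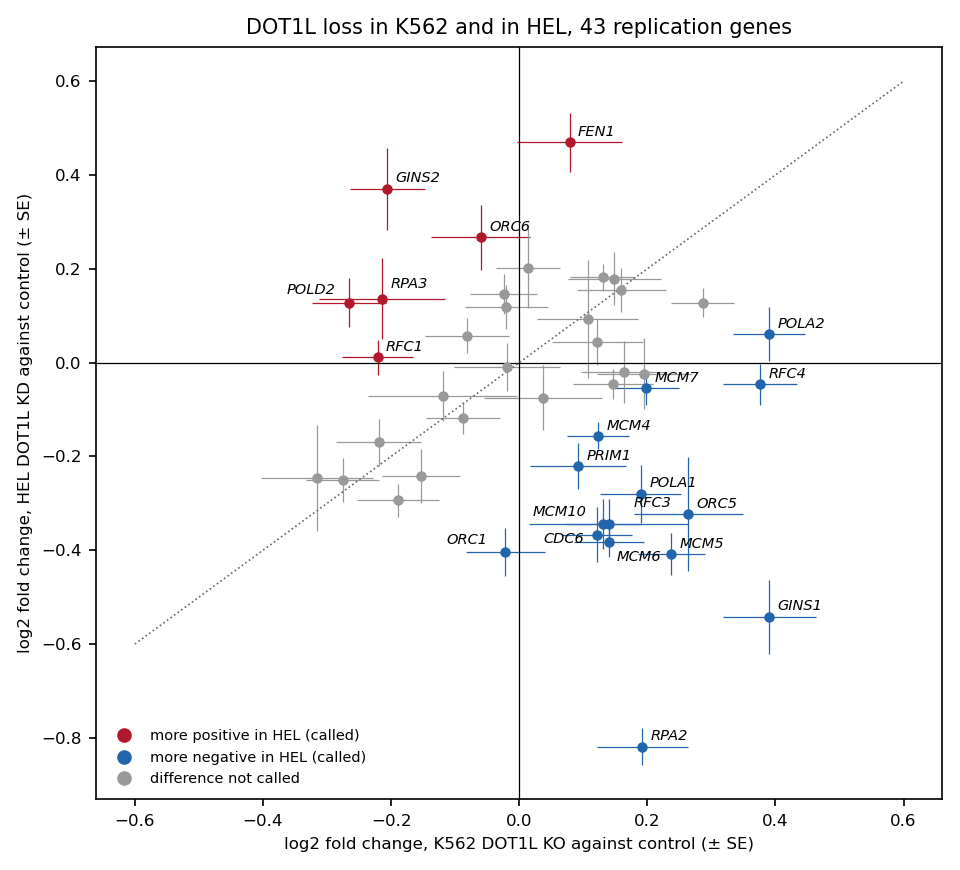
Log2 fold change after DOT1L knockout in K562 (x axis, ± SE) against that after DOT1L knockdown in HEL (y axis, ± SE) for the 43 genes, with the dotted line at equal change. Coloured and named points are the 21 genes whose difference between the lines was called; the 15 blue points, with RPA2 and GINS1 farthest, lie below the line and the 6 red points above it.

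Control cells of the lines differed in this group by larger amounts than a depletion changed it. The median size of the difference was still smaller than over all genes, 0.608 against 1.3. Of the 43 genes 17 were higher in HEL (39.5%, against 41.3% of all genes) and 22 lower (51.2%, against 44.2%), both near the background, with a median of -0.159 against -0.0927 over all genes. CDC45 (chr22:19479826-19520612, + strand, GRCh38) differed most, at 263 and 273 CPM in K562 and 24.8 and 25.9 in HEL (-3.33, SE 0.066, adjusted p = 4.08e-21, edgeR). FEN1 (-2.30), POLD2 (-1.82), POLE (-1.66), MCM7 (-1.49) and GINS2 (-1.40) were also lower in HEL. RPA2 (1.6), RRM2 (1.48) and RFC1 (1.02) were the genes higher in HEL by more than 1 on the log2 scale. These 9 genes passed in each of 10 alternatives, and the confounding of line with counting method named above holds here too.

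Per length of exon, TYMS ranked 1 of the 43 in both lines, at 195.5 ± 1.81 CPM per kb (SD, n = 2) in K562 controls and 163.5 ± 2.11 in HEL controls. MCM7 followed in K562 (179.9 ± 1.03) and RRM2 in HEL (160.2 ± 0.39). In HEL both TYMS values lay only just above both RRM2 values. The lowest levels were those of ORC4 in K562 (7.026 ± 0.791) and GINS3 in HEL (4.779 ± 0.0452). CDC45 ranked 4 in K562 (129.2 ± 3.49), and the plot of control levels shows how far it lay from the diagonal.

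**Figure D4:**
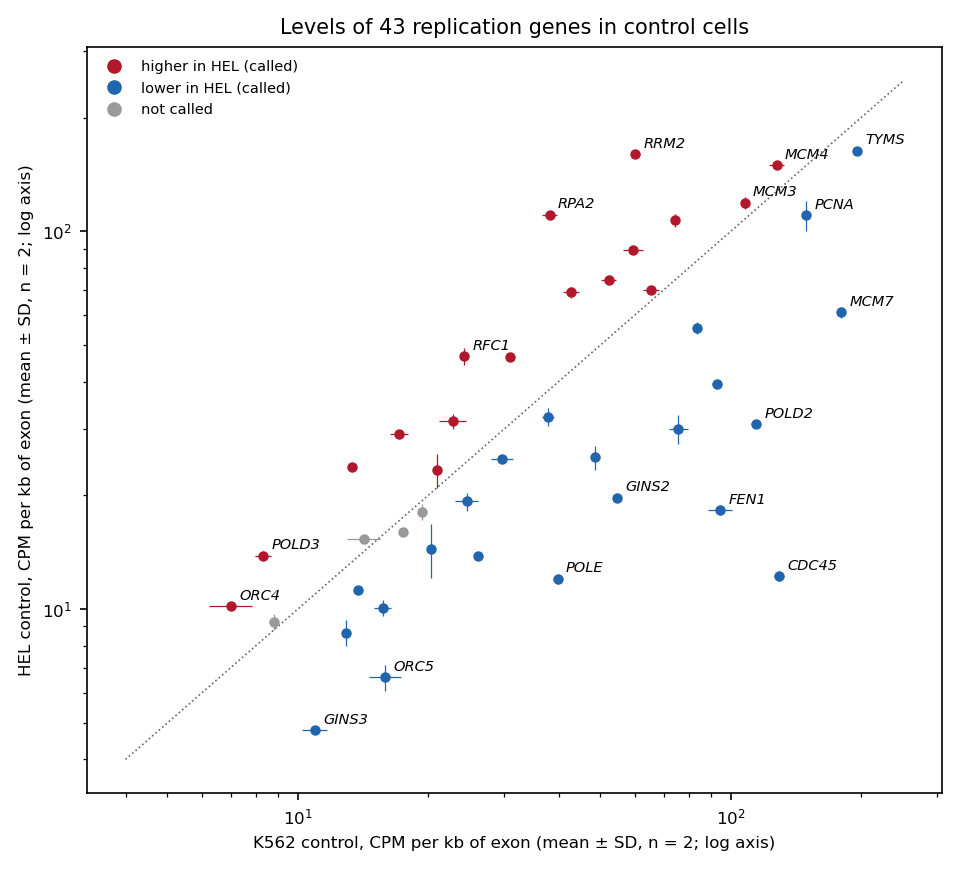
Level in CPM per kb of exon (log axes; mean ± SD, n = 2 each, TMM-scaled within each table) of the 43 genes in K562 control (x axis) and HEL control (y axis), with the dotted line at equal level. Red points were called higher in HEL and blue points lower in the joint fit; CDC45 at 129.2 in K562 is the point farthest below the line.

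For the 37 genes with a promoter window, the changes were also tallied by the presence of an E2F word in it, as a description with no test. In the DOT1L knockout 6 of the 18 genes with a word rose and 4 fell (median 0.122), against 3 and 3 of the 19 without (median 0.0133). In the ENL knockout 11 rose and 1 fell (median 0.232), against 8 and 1 (median 0.113). In HEL 4 rose and 7 fell (median -0.05), against 6 and 7 (median -0.0465). Of all genes tested, 26.9% were called higher and 24.2% lower in the DOT1L knockout. The shares were 18.8% and 22.2% in the ENL knockout, and 27.0% and 28.0% in HEL. Of the genes whose sequences are shown above, MCM6, GINS1 and POLA1 were called higher in both K562 knockouts and lower in HEL. CDC6, CDT1, MCM2, MCM3, MCM7 and PCNA, also shown, did not have this pattern. MCM4, MCM5 and RPA2 had it and are not among the 18 genes with a word. Not all of them had a promoter window, and without a window the words could not be searched.

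Other genes of replication were listed for comparison: 41 genes, 40 of them tested. In the DOT1L knockout 9 were higher and 5 lower, in the ENL knockout 15 and 4, and in HEL 11 and 20, with medians of 0.0471, 0.158 and -0.111. These are 22.5% and 12.5% (against 26.9% and 24.2% of all genes) in the DOT1L knockout. In the ENL knockout they are 37.5% and 10% (against 18.8% and 22.2%), and in HEL 27.5% and 50% (against 27.0% and 28.0%). The same shares of all genes stand beside the lists that follow. POLD4, the small subunit of polymerase delta, had the largest rise in both knockouts (0.90 and 0.99). GMNN, the inhibitor of CDT1, fell in the DOT1L knockout (-0.45), and TOP1, the topoisomerase that relaxes DNA ahead of the fork, fell most in HEL (-1.11). The largest fall in the ENL knockout was that of DCK, a nucleoside kinase (-0.43), and the largest rise in HEL that of RECQL4, a helicase needed for initiation (0.46).

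Among 23 genes of E2F factors, pocket proteins and S-phase cyclins, 5 were higher and 1 lower in the DOT1L knockout, 7 and 3 in the ENL knockout, and 4 and 6 in HEL. In that order these are 21.7% and 4.35%, 30.4% and 13%, and 17.4% and 26.1% of the list. E2F1, an activator of these promoters, rose in the DOT1L knockout (0.99), the ENL knockout (0.51) and HEL (0.31), while E2F7, a repressor, rose most of the list in HEL (0.65). E2F5 fell in both knockouts (-0.45 and -0.57), and LIN52, a subunit of the DREAM complex, fell most of the list in HEL (-0.69). Of 20 G2 and M phase genes 0 were higher and 8 lower in the DOT1L knockout (0 higher also at an unadjusted p under 0.05 in edgeR), 3 and 5 in the ENL knockout, and 7 and 5 in HEL. In that order these are 0% and 40%, 15% and 25%, and 35% and 25% of the list. CDC25C fell most in the DOT1L knockout (-0.51), BUB1B in the ENL knockout (-0.53) and TTK in HEL (-0.38), where CCNB1 rose most (0.41). Of the CDK inhibitor genes, CDKN2C fell in the DOT1L knockout (-0.66), CDKN1C fell in the ENL knockout (-1.29, from very low counts), and in HEL CDKN1A rose (0.56) and CDKN2D fell (-0.63).

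Markers of blood lineages moved beside these changes. Of 10 erythroid markers 9 were higher and 1 lower in the DOT1L knockout, 7 and 1 in the ENL knockout, and 8 and 0 in HEL (0 lower also at an unadjusted p under 0.05 in edgeR). In that order these are 90% and 10%, 70% and 10%, and 80% and 0% of the list. Both megakaryocytic markers tested in K562 (of 8) rose in both knockouts, and the summed level of the list was 7.346 to 9.932 CPM in controls, 33.56 to 35.34 in the DOT1L knockout and 29.49 to 36.86 in the ENL knockout. In HEL 2 of 7 rose and 5 fell. The 7 lymphoid and monocytic markers summed to 55.75 to 56.04 CPM in K562 controls and 346.3 to 381.9 in the DOT1L knockout, of which LYZ, the lysozyme of myeloid cells, made up 310 ± 17.1 (SD, n = 3), with MS4A1 at 0 in all groups. In the ENL knockout that sum was 53.63 to 55.55, and in HEL it was 411.1 to 435.0 in controls and 308.3 to 310.4 after knockdown. The part of these shifts in the replication results was not tested.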

How the data were processed

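The authors deposited whole-number gene counts, of fragments in K562 and of reads in HEL, per the file headers. The submitters' processing notes name fastp 0.13.1, HISAT2 2.1.0, Bowtie2 2.3.4.1, featureCounts 1.6.1 and the builds hg38 and hg19, without saying which served which assay. Whether strand was used in counting is not given in the sources used here. Of 74 samples, 13 are RNA-seq and were used, and 61 were not analysed here. Gene positions overlapped RefSeq GRCh38.p14 for all 43 genes.

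Counts were filtered with filterByExpr (minimum count 10, minimum total 15), scaled with TMM and tested with edgeR 4.0.16 in R 4.3.3 (quasi-likelihood F test), 8 K562 libraries in 1 fit, 4 HEL libraries in another, and 9 in a joint fit for the difference between lines. P-values were adjusted by Benjamini-Hochberg over all genes tested, with a threshold of 0.05, and the standard error was derived from the F statistic. The identical K562 columns left 8 libraries where 9 had been planned. The code was tested on simulated counts. Alternatives were other scalings, DESeq2 1.42.0, no filter, a minimum change, a replicate block, other sample sets and leaving out each library. The minimum change was applied to counts of genes only and is not among the alternatives counted for single genes. The 43 genes and all lists were chosen with earlier results of these data known. Per-library values are given for the 3 largest called changes per comparison, genes called alike in all 3 comparisons or in opposite directions in the 2 lines, the ring genes and the largest called gene of each role. Further genes with library values were added after their values were seen. A zero count would allow up to 3 counts, 0.101 to 0.244 CPM per library, counting error only. An item is not reported here.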

Additional observations from a re-analysis of the deposited data

Results flagged for a closer look

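The change after loss of DOT1L differed between the cell lines for 21 of the 43 genes by a test of the difference itself (HEL change minus K562 change on the log2 scale, edgeR's quasi-likelihood test in the joint fit, adjusted over all genes). Genes more negative in HEL were RPA2 (-0.99), GINS1 (-0.91), MCM5 (-0.63), ORC5 (-0.57), MCM6 (-0.50), CDC6 (-0.47), RFC3 (-0.47), MCM10 (-0.46), POLA1 (-0.45), RFC4 (-0.40), ORC1 (-0.36), POLA2 (-0.31), PRIM1 (-0.29), MCM4 (-0.26) and MCM7 (-0.23). Genes more positive in HEL were GINS2 (0.60), POLD2 (0.41), FEN1 (0.41), RPA3 (0.37), ORC6 (0.35) and RFC1 (0.25). Of these, 12 of the 15 more negative genes and 3 of the 6 more positive ones (GINS2, POLD2, FEN1) passed in each of 15 alternatives. RPA3, ORC6, RFC1, MCM7, PRIM1 and POLA2 lost the call without at least 1 library, with adjusted p up to 0.294 for RPA3. RPA3 also shares 9.42% of its exonic bases with UMAD1 on the other strand, and the counting's use of strand is not stated. No group had enough libraries for a check of single outlying samples.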

How the results depend on the processing

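No called gene of the 43 changed direction in any alternative run. A minimum log2 change of 1 left 0 genes in either direction in the 3 comparisons with a control, between the K562 knockouts and between the responses of the lines, because no change reached that size in edgeR, and it left 3 higher and 10 lower between the control lines. Without the filter on low counts, 7 genes were higher in the DOT1L knockout, 1 was lower in the ENL knockout and 6 were higher in HEL. DESeq2 called 4 higher in HEL. The cause of these changes was not tested. Leaving out 1 library at a time gave 5 to 11 higher and 4 to 8 lower genes in the DOT1L knockout, 12 to 20 higher and 0 to 2 lower in the ENL knockout, 6 to 9 higher in HEL, and 3 to 7 more positive in HEL than in K562. A group left with 1 library was assumed to vary like the others.

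With a replicate block the counts were 19 higher and 9 lower in the DOT1L knockout, 25 and 2 in the ENL knockout, 11 and 17 in HEL. Same-numbered libraries correlated in their deviations by 0.0531 to 0.22 in K562, and differently numbered ones by -0.158 to 0.0881. Deviations were taken within groups of 2 or 3, which forces some values to be negative. In HEL the values were 0.000442 and -0.000442. The labels state no pairing, so the main fits used none, and whether the numbers pair the K562 libraries cannot be settled here. The scaling changed the median of all genes by at most 0.0734 after a depletion (upper quartile, HEL). With 2 or 3 libraries a group, changes of the size of the marginal calls cannot be settled here.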
